A study of Mus musculus with 24 samples.

Results

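The measurement described here is the interaction between loss of Trib1 and loss of Cebpa in mouse liver, read gene by gene from a 2 by 2 design. On log2 of the normalized value plus 1, the difference between the double knockout and the Cebpa knockout was taken, and the difference between the Trib1 knockout and wild type was subtracted from it. An interaction of 0 means that the Trib1 difference had the same size with and without Cebpa, a positive one that it was more positive without Cebpa, and a negative one that it was more negative. All 24 libraries of the series entered it, and it was computed for the 19810 of 54432 genes in the table whose mean value was at least 1.

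Each library came from the whole liver of 1 male C57BL/6 mouse, 6 mice a group, on chow and taken at midday after 4 h without food. The wild-type group (WT, genotype Wild Type) carried no floxed allele by its label, the group Trib1-KO was Trib1 Flox/Flox, the group Cebpa-KO was Cebpa Flox/Flox, and the double knockout (DKO) was Trib1;Cebpa Flox/Flox. Every group, WT included, had received the same treatment, an adeno-associated virus that carries Cre recombinase (AAV-Cre), 4 weeks earlier and at 20 to 21 weeks of age. Cre cuts out DNA between loxP sites, so that the groups differ in the alleles Cre can act on, and the promoter that drives Cre is not given in the sources used here. The mice were handled in 2 cohorts, and the table's columns, named by group, a letter and a number, do not say which cohort a library belongs to. Library totals were 23385900 to 27190700 normalized counts, with 19831 to 21189 genes above 0. The 8 hepatocyte markers examined were above 0 in some library of every group, and because whole liver was sequenced, fewer cells of a type and less RNA per cell cannot be told apart.

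Trib1 encodes a Tribbles pseudokinase, a protein that binds substrates and hands them to the ubiquitin ligase COP1 but has little or no kinase activity of its own. Its best known substrate is C/EBPα, the basic leucine zipper transcription factor encoded by Cebpa, which drives many genes of mature hepatocytes and of lipid and glucose metabolism. When 2 genes act in 1 chain in this way, removing the substrate is the classical genetic test of whether the effects of losing the adaptor run through it, and the difference of differences is how such epistasis is measured.

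The targeted genes were read first. Cebpa (chromosome 7, 35119293 to 35121928, GRCm38) ranged from 4264 to 7412 normalized counts in WT, from 2295 to 3163 in the libraries labelled Trib1-KO, from 50.5 to 101 in Cebpa-KO and from 58.1 to 102 in DKO. The 12 libraries of Cebpa-KO and DKO overlapped each other and lay below every library of the other groups. Its interaction was 1.17 ± 0.23 (SE; limma adjusted p = 8.2e-04), made of a difference of -1.16 with intact Cebpa and 0.01 in the floxed background, where the gene itself is deleted. Trib1 (chromosome 15, 59648350 to 59657099, GRCm38) went against its label, since it ranged from 3734 to 4784 in the libraries labelled Trib1-KO against 874 to 1475 in WT. It ranged from 286 to 1077 in the libraries labelled DKO against 215 to 646 in Cebpa-KO. The transcript was thus higher in the floxed group in both backgrounds, by 1.81 and 1.13 on the log2 scale, and its interaction of -0.67 ± 0.34 did not pass the test (95% interval -1.38 to 0.03, adjusted p = 0.23). The table gives 1 value per gene, which cannot show whether the part between the loxP sites is missing, so every direction below rests on the labels of these 2 groups of libraries.

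**Figure D1:**
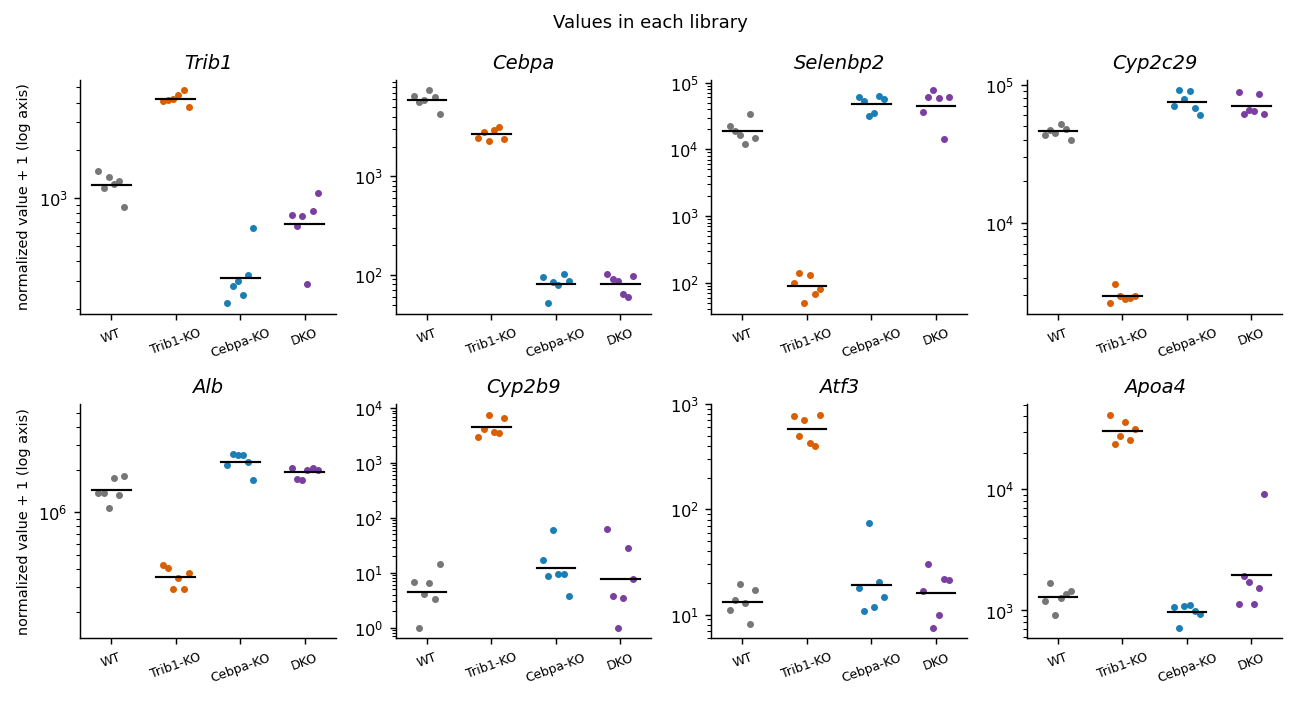
Normalized value plus 1 (log axis) of 8 genes in each library, 6 libraries a group, with a bar at the group's geometric mean. Selenbp2, Cyp2c29 and Alb were low, and Cyp2b9, Atf3 and Apoa4 high, in the libraries labelled Trib1-KO, while DKO overlapped Cebpa-KO in these genes except Apoa4, where DKO lay above it; Trib1 itself was raised in both floxed groups.

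The interaction was called (adjusted p under 0.05) for 2490 genes, which is 12.6% of those tested. It was positive for 1257 genes (6.35%) and negative for 1233 (6.22%), and 1198 of the 2490 passed with an interaction of at least 2-fold. At an unadjusted p under 0.05 there were 4897. The split by direction depends on scaling: the genes of the major urinary proteins (Mup) took 24.05 ± 2.34% of all values in the libraries labelled Trib1-KO against 7.02 ± 2.21% in WT, 1.76 ± 0.42% in Cebpa-KO and 2.78 ± 1.08% in DKO (SD, n = 6). With libraries scaled to equal totals without these genes, the median interaction of all genes moved from -0.01 to -0.23, and 626 genes were called positive and 2873 negative.

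Most called genes had 1 shape. In 2264 of the 2490 genes (90.9%) the Trib1-KO minus WT difference was called, the DKO minus Cebpa-KO difference was not, and the interaction had the sign opposite to the first. This class is named lost without Cebpa, although a difference that was not called can still be present. For its members Kcnk1 and Mup18 the 95% interval in DKO ran from 0.79 to 2.83 and from -5.82 to -1.73. The Trib1 difference was smaller but still called in 4 genes, larger in 0, of opposite sign in 9, called only without Cebpa in 12, and called in neither background in 201. Over all genes, 4498 (22.7%) were called between Trib1-KO and WT, and 40 (0.202%) between DKO and Cebpa-KO. Before adjustment, 6492 and 1878 had a p under 0.05. The adjustment was made within each comparison, so the unadjusted p needed for a call was lower in the second. The 2 differences share no library. Their SD across genes was 0.78 and 0.43 on the log2 scale, while their median standard error was 0.23 in both.

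A difference that missed the threshold in DKO is not thereby shown to be absent, so its interval was read too. Among the 4498 genes called between Trib1-KO and WT, 2277 (50.6%) had a called interaction of opposing sign. For 2637 (58.6%), the 95% interval of the DKO minus Cebpa-KO difference lay within 1.5-fold of no difference in either direction. Of the 2277 with an opposing interaction, 1398 had such an interval. In a count that overlaps the 2637, 2212 of the 4498 were called in neither the DKO comparison nor the interaction. For these 2212 the tests call neither a response in DKO nor a difference from that with Cebpa. The 1691 genes with a called Trib1-KO difference of at least 2-fold had a median ratio of the DKO difference to the Trib1-KO difference of 0.02, with quartiles of -0.14 and 0.19. Of these, 1015 (60%) had a called opposing interaction, 8 had a called DKO difference of the same sign, and 916 (54.2%) had a DKO difference of the same sign whatever its size. Across the 19810 genes, which are not independent, the correlation of the 2 differences was 0.03 and the slope 0.02.

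**Figure D2:**
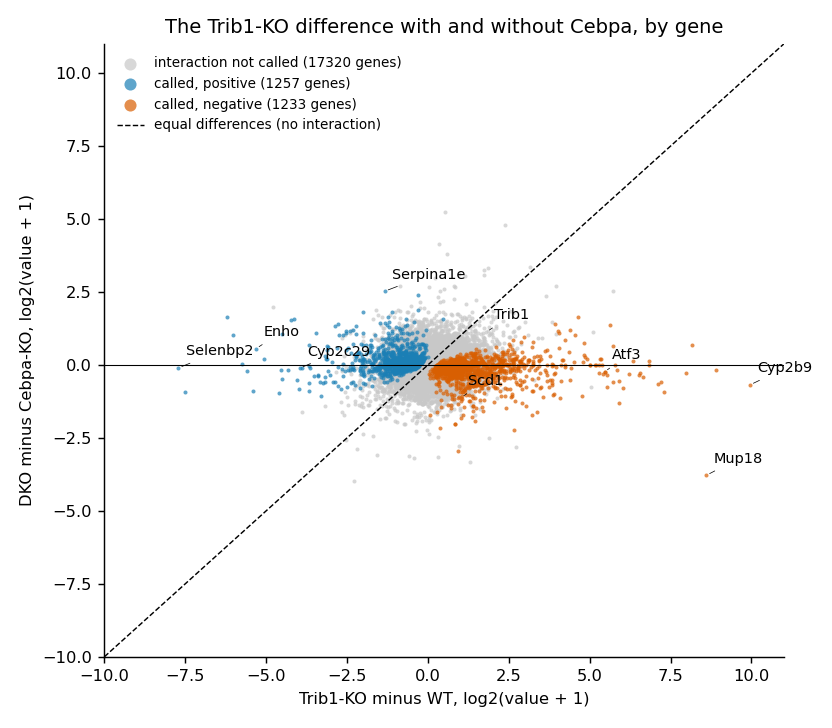
Each point is a gene, with the Trib1-KO minus WT difference on the horizontal axis and the DKO minus Cebpa-KO difference on the vertical axis, both on log2 of the value plus 1. A gene with a called interaction lies off the dashed diagonal of equal differences by definition. Most such genes lay near the horizontal line at 0, with Serpina1e and Scd1 among the exceptions.

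The interaction can also be read down the other side of the design, as the Cebpa difference with and without Trib1. Cebpa-KO differed from WT in 1946 genes (9.82%), and DKO from Trib1-KO in 6006 (30.3%). Of the 2490 genes with a called interaction, 1795 were called between DKO and Trib1-KO and not between Cebpa-KO and WT, 154 the reverse, 350 in both with the same sign, 73 in both with opposite signs and 118 in neither. The log scale takes independent effects to multiply. On the deposited scale, where they would add, the interaction had the same sign for 2477 of the 2490 genes and the opposite sign for 13.

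Of the 15 largest positive interactions, all but that of Serpina1e belonged to genes that fell with intact Cebpa and did not pass the test without it. The ranking favours this, since the interaction subtracts the Trib1-KO difference and only 40 genes passed between DKO and Cebpa-KO. Selenbp2, a selenium-binding protein gene that male mouse liver expresses more highly than female liver, ranged from 12089 to 34316 in WT with a median of 17657 and from 48.4 to 142 in Trib1-KO with a median of 89.6. It ranged from 32054 to 63300 in Cebpa-KO with a median of 54910 and from 14477 to 76557 in DKO with a median of 60097. Trib1-KO lay far below the other 3 groups, and DKO and Cebpa-KO overlapped. The interaction was 7.61 ± 0.47 (adjusted p = 4.9e-11). Had the 2 single-knockout fold changes multiplied, the DKO group would have stood at 231, and its geometric mean was 45417.

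Enho, which encodes the secreted peptide adropin, ranged from 235 to 689 in WT, 2.27 to 15.1 in Trib1-KO, 616 to 755 in Cebpa-KO and 846 to 1575 in DKO, and its interaction was 5.87 ± 0.44. Adgrf1, an adhesion G protein-coupled receptor gene, ranged from 165 to 441 in WT, 0.963 to 10.2 in Trib1-KO, 181 to 448 in Cebpa-KO and 124 to 339 in DKO, with an interaction of 5.4 ± 0.51. The Trib1-KO range touched no other group in either gene. Slc22a7, an organic anion transporter gene, had an interaction of 4.34 ± 0.59, the carboxylesterase gene Ces1g one of 3.76 ± 0.17 and the zinc importer gene Slc39a4 one of 3.55 ± 0.36. Ugt2b38, Kcnk1, Ttyh1 and Dsg1c, at 3.64 to 5.26, completed the 15 largest with Serpina1e, Mup21 and 3 members of the Cyp2c family; without a log the interaction of Dsg1c was -297.

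The 3 Cyp2c genes among the 15 encode cytochrome P450 enzymes that oxidise drugs, steroids and fatty acids. Cyp2c29 ranged from 40109 to 52418 in WT, 2620 to 3602 in Trib1-KO, 60515 to 91196 in Cebpa-KO and 61170 to 88595 in DKO. The interaction was 3.85 ± 0.16 (adjusted p = 3.2e-14), against a DKO minus Cebpa-KO difference of -0.11. Cyp2c37, Cyp2c54 and Cyp2c50 followed at 4.04, 3.53 and 2.26. Reads of such close relatives can be shared among them, so the 15 Cyp2c genes were also summed: the sum averaged 101773 in WT, 23699 in Trib1-KO, 169885 in Cebpa-KO and 145879 in DKO, with an interaction of 1.89 ± 0.15. The DKO minus Cebpa-KO difference of the sum was -0.22 ± 0.10 and did not pass.

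Genes that rose with intact Cebpa had the largest negative values, which the subtraction of that rise favours in the same way. Cyp2b9, a P450 gene that adult female mice express in liver, ranged from 0 to 13.2 in WT, from 2969 to 7563 in Trib1-KO, from 2.74 to 58.9 in Cebpa-KO and from 0 to 63 in DKO. The interaction was -10.64 ± 1.10 (adjusted p = 1.9e-07). Only the libraries labelled Trib1-KO stood above 100 counts, and the other 3 groups overlapped. The sum of 5 Cyp2b genes averaged 542 in WT, 5991 in Trib1-KO, 721 in Cebpa-KO and 331 in DKO, an interaction of -5.03 ± 0.56.

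Ntrk2, the receptor of brain-derived neurotrophic factor, ranged from 2.49 to 135 in WT, 1153 to 1908 in Trib1-KO, 18.1 to 137 in Cebpa-KO and 10.7 to 38.4 in DKO (interaction -7.20 ± 0.87). Ly6d, a membrane-anchored Ly6 family gene, ranged from 2.76 to 22.7, 663 to 1224, 5.61 to 25.5 and 7.19 to 34.2 in the same order (interaction -6.22 ± 0.59). Atf3, a stress-induced transcription factor gene, ranged from 7.17 to 18.4 in WT, 402 to 792 in Trib1-KO, 9.76 to 72.7 in Cebpa-KO and 6.52 to 29.4 in DKO (interaction -5.70 ± 0.55). Each of these 3 genes was above all other groups in every library labelled Trib1-KO. Gpnmb, a glycoprotein gene of lipid-laden macrophages, had an interaction of -6.30 ± 0.90, the chitinase-like gene Chil1 one of -5.73 ± 0.77, Pnpla3, which encodes a lipid droplet protein, one of -6.33 ± 1.09, and Gprc5b and Jazf1 of -5.81 and -5.20. The other 6 of the 15 largest were Mup18, Mup8, Mup6, Mup17, Sult2a7 and Cyp2a4, all of families whose members share sequence.

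The windows of 250 bases before the RefSeq start site (GRCm38.p6) are shown for the genes among these 30 that hold the letters TTGCNNAA, a core form of the C/EBP binding site, on either strand; capitals mark the match. A window was found for 22 of the 30, 4 of the 22 held the C/EBP letters, and 0 held the STAT5 core TTCNNNGAA, which the growth hormone signal acts through. The 4 are printed because they stand on both sides of the interaction, positive for Cyp2c37 (chr19:39992174-39992423, plus strand) and Serpina1e (chr12:103956898-103957147, minus strand) and negative for Cyp2b9 (chr7:26173159-26173408, plus strand) and Cyp2a4 (chr7:26306942-26307191, plus strand). The match begins at -94, -211, -180 and -70 from the start site in that order; the start site used for Serpina1e lies 2078 bases from the 5′ end in GENCODE.
Cyp2c37: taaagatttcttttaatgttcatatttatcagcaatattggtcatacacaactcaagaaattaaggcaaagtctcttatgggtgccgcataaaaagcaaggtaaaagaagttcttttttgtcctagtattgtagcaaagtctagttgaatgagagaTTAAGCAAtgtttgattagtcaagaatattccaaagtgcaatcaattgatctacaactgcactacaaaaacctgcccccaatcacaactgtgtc
Serpina1e: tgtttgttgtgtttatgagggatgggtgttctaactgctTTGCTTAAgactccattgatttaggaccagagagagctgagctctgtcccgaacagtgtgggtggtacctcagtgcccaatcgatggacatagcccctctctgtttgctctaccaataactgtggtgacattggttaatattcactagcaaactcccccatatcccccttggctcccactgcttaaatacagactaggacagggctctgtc
Cyp2b9: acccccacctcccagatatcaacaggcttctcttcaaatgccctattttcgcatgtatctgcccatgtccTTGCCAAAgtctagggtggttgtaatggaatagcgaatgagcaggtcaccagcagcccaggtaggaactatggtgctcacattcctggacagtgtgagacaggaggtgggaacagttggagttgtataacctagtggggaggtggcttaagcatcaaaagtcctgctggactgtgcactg
Cyp2a4: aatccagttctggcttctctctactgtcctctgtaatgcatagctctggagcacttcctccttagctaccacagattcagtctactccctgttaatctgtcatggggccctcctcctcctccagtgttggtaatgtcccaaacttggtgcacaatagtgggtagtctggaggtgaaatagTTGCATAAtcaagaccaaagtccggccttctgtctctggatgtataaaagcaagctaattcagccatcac
Over all tested genes with a window, 1038 of 12609 (8.2%) held the C/EBP letters, against 100 of 949 (10.5%) with a positive and 96 of 881 (10.9%) with a negative interaction. The STAT5 letters were in 6.1% of all windows, 6.3% of the positive and 7.5% of the negative. Both directions thus held the C/EBP letters at a similar share. A match is a description of letters and not of binding.

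Genes of known sex bias were the group with the most extreme median in each direction. Liver sex bias is set in mice by the pattern of growth hormone release, which STAT5B carries to the genome, with BCL6 and CUX2 as male- and female-type repressors. Of 26 female-biased genes tested, 17 had a called negative interaction and 1 a positive one, Cyp3a16 at 1.77. The median interaction was -3.65, made of a median of 2.96 for Trib1-KO minus WT and -0.50 for DKO minus Cebpa-KO. The same medians over all 19810 genes were -0.01, 0.01 and 0.00. Of those genes 6.35% had a called positive and 6.22% a called negative interaction, and no list count here or below was tested against these shares. Sult3a1, a sulfotransferase gene, ranged from 0 to 2.03 in WT, 408 to 1428 in Trib1-KO and 0 to 1.06 in Cebpa-KO, and was listed at 0 in every DKO library. The steroid 17α-hydroxylase gene Cyp17a1 ranged from 111 to 514 in WT, 3366 to 5799 in Trib1-KO, 35.6 to 45.3 in Cebpa-KO and 36.9 to 137 in DKO (interaction -3.89 ± 0.43).

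Of 22 male-biased genes tested, 14 had a called positive interaction and 0 a negative one, with a median of 1.13 from medians of -0.96 and 0.39. Mup20, the pheromone protein darcin, ranged from 133931 to 267963 in WT, 13025 to 33838 in Trib1-KO, 262939 to 411580 in Cebpa-KO and 291565 to 562367 in DKO, with an interaction of 3.46 ± 0.32. The steroid dehydrogenase gene Hsd3b5 had an interaction of 3.04 ± 0.66, the protease inhibitor gene Serpine2 one of 2.73 ± 0.30, the oxysterol hydroxylase gene Cyp7b1 one of 2.58 ± 0.36 and Cyp2d9 one of 1.08 ± 0.12. In 11 of the 22 the Trib1-KO difference was called down and in 1 up; 2 of 22 were called up in DKO, Serpina1e and Mup3.

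Genes that carry the growth hormone signal had calls at 6 of 21, against 12.6% of all genes tested, mostly of small size. Of the 21, 5 had a called positive interaction (Igfbp2 at 1.44, Igfals at 0.85, Ghr and Rxra at 0.45 and Igf1 at 0.37) and 1 a negative one, Igfbp3 at -0.80; the median of 0.05 turned to -0.19 with totals scaled without Mup genes. Ghr and Rxra did not pass with that scaling (adjusted p = 0.22 and 0.30) or after quantile normalization (0.14 and 0.28). Ghr encodes the growth hormone receptor, and Igf1 and Igfals the circulating growth factor and its carrier. Stat5b, at 0.03 ± 0.13, had no called interaction, nor did Bcl6 at -0.86 ± 0.73 or Cux2 at 0.25 ± 0.92. The last pair were poorly measured: Bcl6 ranged from 185 to 1211 in Trib1-KO and from 211 to 1904 in DKO, and Cux2 from 0.92 to 32.2 over the 12 libraries of Trib1-KO and Cebpa-KO. The STAT5 targets Socs2 and Cish stood at -1.68 ± 0.67 and -1.21 ± 0.86, without passing the test.

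Major urinary proteins are small pheromone carriers made in liver and excreted, encoded by a cluster whose copies are nearly identical, so single members are uncertain. Of the 22 tested, 5 had a called negative interaction and 3 a positive one, Mup21, Mup20 and Mup3, and 14 had none. Over all genes tested the shares were 6.22% and 6.35%. The median interaction was -0.66, from medians of 1.99 for Trib1-KO minus WT and 0.98 for DKO minus Cebpa-KO. The Trib1-KO difference was called up in 16 and down in 2, and the DKO difference was called up in 1. The sum of the 22 averaged 1759657 ± 573850 in WT, 6231837 ± 884812 in Trib1-KO, 425246 ± 91155 in Cebpa-KO and 679046 ± 257011 in DKO (SD, n = 6). The interaction of the sum was -1.29 ± 0.36 (adjusted p = 0.019), from differences of 1.91 with Cebpa and 0.62 without. Mup18 had the most negative value of any named gene, -12.38 ± 1.40.

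Genes of the C/EBP and Tribbles pathway itself had 3 positive and 3 negative calls of 15. Cebpa itself was among the positive calls. Since it is deleted in both Cebpa-KO and DKO, its interaction only repeats its Trib1-KO difference with the sign turned. Cebpe, a family member otherwise known from granulocytes, ranged from 99.9 to 160 in WT, 33 to 60.5 in Trib1-KO, 292 to 368 in Cebpa-KO and 303 to 391 in DKO (interaction 1.76 ± 0.19). Ddit3 (CHOP), a dominant-negative C/EBP relative, ranged from 84.3 to 143, 214 to 339, 87.9 to 136 and 82.7 to 111 in the same order (interaction -1.36 ± 0.19). Cebpg was at -0.51 ± 0.11. In these genes the Trib1-KO range lay outside WT and DKO overlapped Cebpa-KO. The ligase gene Cop1 was at -0.15 ± 0.10, Cebpb at 1.01 ± 0.37 and Cebpd at 0.14 ± 0.57, and none of these passed. Of 15 textbook C/EBPα-dependent liver genes, 8 had a called positive and 0 a negative interaction, with a median of 0.85 from medians of -0.31 and 0.05. Alb, which encodes serum albumin, ranged from 1080000 to 1810000 in WT, 290593 to 428238 in Trib1-KO, 1700000 to 2590000 in Cebpa-KO and 1680000 to 2050000 in DKO (interaction 1.77 ± 0.21). Otc, the urea cycle enzyme, was at 0.97 ± 0.11, Cyp2e1 at 1.05 ± 0.16 and Pck1, the rate-setting gene of gluconeogenesis, at 1.19 ± 0.26. The list's label is not drawn from these data. Alb, Otc and Cyp2e1 were higher in Cebpa-KO than in WT, by 0.67, 0.51 and 0.43, and Pck1 differed by -0.15.

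Genes of secreted plasma proteins had mostly positive calls. Of 33 complement and coagulation genes, 27 had a called positive interaction and 0 a negative one; the median was 0.71, from -0.61 with Cebpa and 0.13 without, and no member was called in DKO. C8a, part of the pore that complement inserts into target membranes, ranged from 16940 to 25356 in WT, 4316 to 8907 in Trib1-KO, 26882 to 41634 in Cebpa-KO and 33602 to 45079 in DKO (interaction 2.18 ± 0.20). C1ra, the first protease of the classical pathway, was at 1.29 ± 0.09 and the plasma kallikrein gene Klkb1 at 1.23 ± 0.10. Of 29 plasma carriers and hepatokines, 17 were positive and 3 negative, with a median of 0.57. The protease inhibitor gene Mug1 ranged from 109676 to 143832 in WT, 36256 to 47088 in Trib1-KO, 117102 to 148302 in Cebpa-KO and 134252 to 165124 in DKO (interaction 1.81 ± 0.12). The 3 negative members were Serpina7, the thyroxine-binding globulin gene, at -4.05, A1bg and Fgf21. Acute phase proteins had 6 positive and 1 negative call of 28, beside 6.35% and 6.22% of all genes tested. Their median of 0.59 came from 0.16 with Cebpa and 0.62 without, unlike the fall with Cebpa in the lists above. The Trib1-KO difference was called up in 7 and down in 5, and no member was called in DKO. Not being called did not mean small, since the DKO minus Cebpa-KO differences of the list ran from -0.19 to 5.23. The upper value is also the highest among all genes tested. The positive calls included the fibrinogen chains Fga, Fgb and Fgg at 1.16 to 1.24 and Itih3 at 2.13. The negative one was the pentraxin gene Apcs, at -1.98 ± 0.62. Fgb and Fgg no longer passed after quantile normalization.

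Several lists of metabolic enzymes had mostly positive calls, beside 6.35% positive and 6.22% negative over all genes tested. Of 29 xenobiotic genes, 18 were called positive and 3 negative (median 0.73). Of 25 urea cycle and amino acid catabolism genes, 10 were positive and 0 negative (median 0.48), and of 20 cholesterol synthesis genes 9 and 0 (median 0.57, from -0.67 and -0.08). In that last pathway the sterol reductase gene Tm7sf2 was at 1.19 ± 0.14, Msmo1 at 1.27 ± 0.27 and Cyp51 at 0.94 ± 0.22. Sqle, the squalene epoxidase gene, was at 1.47 ± 0.44. Bile acid genes had 6 positive and 1 negative call of 21, the bile acid ligase gene Slc27a5 at 1.06 ± 0.10 and the repressor gene Nr0b2 at 1.75 ± 0.29 among them. Cyp7a1, the rate-limiting enzyme, was at -1.02 ± 0.79 and did not pass.

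Lipid synthesis and storage leaned to the other side, beside 6.22% negative and 6.35% positive over all genes tested. Of 24 fatty acid and triglyceride synthesis genes, 11 were called negative and 3 positive, with a median of -0.68 from 0.41 and -0.17. Malic enzyme Me1 was at -1.87 ± 0.34, Elovl6 at -1.31 ± 0.25, the carboxylase gene Acaca at -1.27 ± 0.24 and Scd2 at -1.03 ± 0.19. The transcription factor gene Srebf1 was among the 3 positive members, at 1.00 ± 0.24, and Fasn, at -0.69 ± 0.26, did not pass (adjusted p = 0.084). Lipid droplet and uptake genes had 6 negative and 2 positive calls of 22. The droplet protein gene Cidec ranged from 74.2 to 395 in WT, 1814 to 2882 in Trib1-KO, 39.3 to 212 in Cebpa-KO and 13.2 to 130 in DKO (interaction -4.22 ± 0.66). The fatty acid-binding protein gene Fabp4 was at -2.15 ± 0.27 and the lipase activator gene Abhd5 at -1.15 ± 0.15, while the fatty acid transport gene Slc27a2 was at 0.77 ± 0.10 and did not pass after quantile normalization (adjusted p = 0.056).

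Lipoprotein genes had calls in both directions. Of 25 apolipoprotein and assembly genes, 9 were called positive and 1 negative (median 0.25). Apoa1, the main protein of high-density lipoprotein, ranged from 140301 to 184511 in WT, 55058 to 72065 in Trib1-KO, 120165 to 156530 in Cebpa-KO and 111302 to 149702 in DKO (interaction 1.29 ± 0.13). The negative member was Apoa4, which ranged from 914 to 1680, 23798 to 41274, 720 to 1106 and 1128 to 9152 in the same order (interaction -3.53 ± 0.46); 1 DKO library, DKO_H3, held the 9152. Every DKO library lay above every Cebpa-KO library, a difference of 1.02 that did not pass the test (adjusted p = 0.26). Apob, the structural protein of very-low- and low-density lipoprotein, ranged from 155034 to 171622, 134749 to 146033, 135550 to 175653 and 157505 to 182227. Its interaction of 0.36 ± 0.10 (adjusted p = 0.019) did not pass with no filter on low values or with totals scaled without Mup genes. Sort1, a sorting receptor gene tied to plasma cholesterol, had an interaction of 0.25 ± 0.18 (adjusted p = 0.44). Of 20 receptor and SREBP regulator genes, 6 were positive and 4 negative. Anxa2 ranged from 240 to 304 in WT, 1399 to 2000 in Trib1-KO, 213 to 285 in Cebpa-KO and 217 to 305 in DKO (interaction -2.59 ± 0.15). The lipoprotein receptor gene Vldlr was at -4.92 ± 0.51, the scavenger receptor gene Cd36 at -2.44 ± 0.39 and the sterol sensor gene Insig1 at 0.90 ± 0.16.

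Genes of both zones of the liver lobule leaned to positive values. Of 19 pericentral genes, 7 were called positive and 2 negative (median 0.47), and of 18 periportal genes 6 and 0 (median 0.53). Pigr, the immunoglobulin transporter gene of the periportal list, ranged from 28291 to 38659 in WT, 5805 to 7295 in Trib1-KO, 43340 to 53631 in Cebpa-KO and 41830 to 52548 in DKO (interaction 2.25 ± 0.12). The pericentral transporter genes Slc1a4 and Slc22a3 were at -2.20 ± 0.30 and -2.50 ± 0.38. Hepatocyte transcription factors had 5 positive and 1 negative call of 22, with Nr1i3, the drug sensor CAR, at 1.07 ± 0.21. Fatty acid oxidation (3 positive and 2 negative of 24), gluconeogenesis and glycogen (3 and 2 of 22) and the clock (2 and 2 of 20) had 4 or 5 calls each. That is above the 12.6% of all genes tested that were called in both directions together, but counts this small were not tested against that share. The positive clock calls, Nr1d1 and Cry2, missed the threshold in 16 and 14 of 35 alternative fits. Nuclear-encoded oxidative phosphorylation (2 and 0 of 24) lay below that share.

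**Figure D3:**
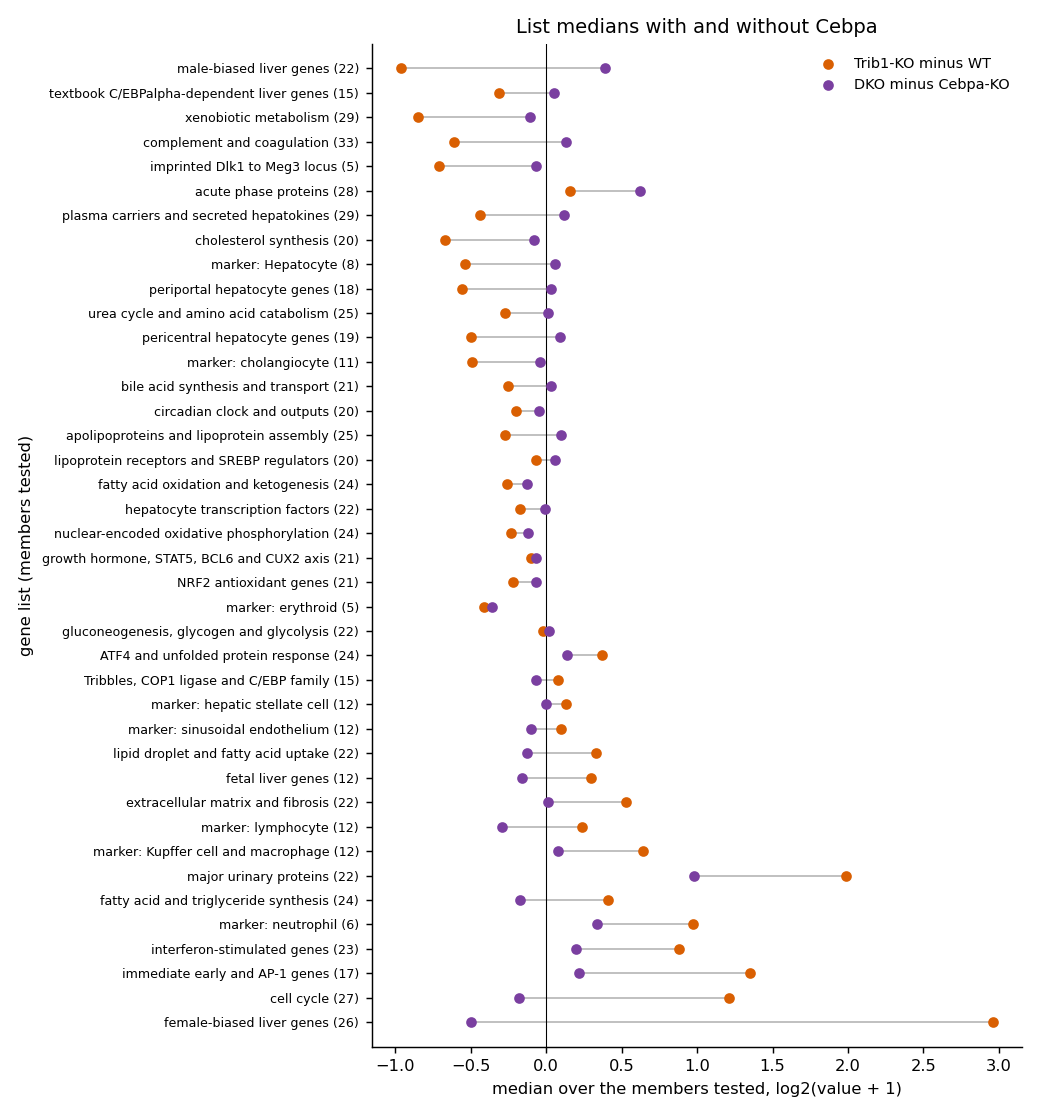
Median over the tested members of each gene list (number in brackets) of Trib1-KO minus WT in orange and DKO minus Cebpa-KO in purple, on log2 of the value plus 1, ordered by the median interaction. The female-biased list ran from 2.96 to -0.50 and the male-biased list from -0.96 to 0.39, and most purple points lay near 0.

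Cell cycle, immediate early, interferon and matrix genes had mostly negative calls. Of 27 cell cycle genes, 12 were called negative and 1, E2f1, positive at 0.67, with a median of -1.29 from 1.21 and -0.18. The proliferation marker Mki67 ranged from 44.5 to 118 in WT, 176 to 381 in Trib1-KO, 45.8 to 196 in Cebpa-KO and 47.6 to 97.2 in DKO (interaction -2.17 ± 0.40). The G1 cyclin gene Ccnd1 was at -1.88 ± 0.36 and the helicase subunit gene Mcm5 at -1.72 ± 0.31. Of 17 immediate early genes, 6 were negative and 0 positive (median -0.99), with Klf6 at -2.12 ± 0.19 and Fosl1 at -5.13 ± 0.48. Fosl1 was at 0.993 or less in WT and Cebpa-KO and at 1.52 or less in DKO, against 19.8 to 78.7 in Trib1-KO.

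Of 23 interferon-stimulated genes, 9 were negative and 0 positive (median -0.81). For this and the lists that follow, the shares over all genes tested were 6.22% negative and 6.35% positive. The guanylate-binding protein gene Gbp3 ranged from 70.7 to 181 in WT, 330 to 762 in Trib1-KO, 63.3 to 211 in Cebpa-KO and 110 to 272 in DKO (interaction -1.77 ± 0.37). Matrix genes had 6 negative and 0 positive calls of 22, with the macrophage elastase gene Mmp12 at -5.09 ± 0.40 and Col3a1 at -1.19 ± 0.28. Among ATF4 and unfolded protein response genes, 6 of 24 were negative and 1 positive, with the cystine transporter gene Slc7a11 at -4.41 ± 0.87 and the serine synthesis gene Psat1 at -3.54 ± 0.72. NRF2 genes had 7 negative and 3 positive calls of 21, Gstp1 (1.89 ± 0.25) and Gclm (0.81 ± 0.10) being positive. Fetal liver genes had 4 negative and 0 positive calls of 12, the hexokinase gene Hk2 at -2.48 ± 0.45 among them. In the imprinted cluster of Meg3, 1 of 5 was called, Meg3 itself at 1.37 ± 0.31; without a log its interaction was -540, since its mean was 92 in WT, 22.8 in Trib1-KO, 1755 in Cebpa-KO and 1145 in DKO.

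Markers of other cells moved in some of the same groups. The summed level of 12 Kupffer cell and macrophage markers ranged from 9915 to 17988 in WT, 18896 to 22138 in Trib1-KO, 12903 to 16884 in Cebpa-KO and 11427 to 17827 in DKO, and 7 of the 12 had a called negative interaction, such as Cd68 at -1.26 ± 0.28 and Cd5l at -0.87 ± 0.21. The Trib1-KO range lay above the other 3. The sum of the 8 hepatocyte markers, albumin among them, ranged from 1712996 to 2534235 in WT, 766368 to 880441 in Trib1-KO, 2342164 to 3116852 in Cebpa-KO and 2242968 to 2743153 in DKO, and 6 of the 8 had a called positive interaction. Endothelial and stellate markers had 2 negative calls of 12 each, neutrophil markers 1 of 6 (Retnlg at -2.53), cholangiocyte markers 1 each way of 11, and lymphocyte markers 0 of 12 and erythroid markers 0 of 5. These few calls stand beside 12.6% of all genes tested. The endothelial calls, Pecam1 and Fcgr2b, missed the threshold in 18 of 35 alternative fits each, and Dcn of the stellate markers in 8. The endothelial sums overlapped in all 4 groups, at 10473 to 14036. The cholangiocyte sum ranged from 1674 to 2372 in WT, 1314 to 1534 in Trib1-KO, 3036 to 8329 in Cebpa-KO and 2909 to 5908 in DKO, so that Trib1-KO lay wholly below WT and DKO overlapped Cebpa-KO. The lymphocyte sum was 535 to 1644 in Cebpa-KO and 246 to 643 over the other 3 groups. In every group each marker was above 0 in some library, except Camp in WT. The part that the cell types play in the interferon, matrix, cell cycle and plasma protein results was not tested.

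Few genes departed from the common shape, and they were examined singly. In 9 genes the difference changed sign, rising with Cebpa and falling without it. Scd1, the Δ9 desaturase gene that makes monounsaturated fatty acids, ranged from 131129 to 225167 in WT and from 219167 to 504322 in Trib1-KO, then from 137424 to 297634 in Cebpa-KO and from 58230 to 113107 in DKO. DKO lay below all 18 other libraries. The difference was 1.02 with Cebpa and -1.12 without it (adjusted p = 6.7e-04 and 0.017), an interaction of -2.14 ± 0.30. Bckdhb, a subunit of branched-chain ketoacid dehydrogenase, did the same at smaller size, with 0.32, -0.41 and an interaction of -0.73 ± 0.12.

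The other 7 of the 9 carry predicted-gene or clone names, and were picked out after their values were seen. Gm4316 ranged from 210 to 414 in WT, 1476 to 3053 in Trib1-KO, 557 to 1970 in Cebpa-KO and 183 to 415 in DKO (interaction -4.90 ± 0.34). Gm42427 ranged from 3390 to 5909, 10846 to 16478, 10112 to 15600 and 3095 to 6808 in the same order (interaction -2.81 ± 0.25). Gm10524, AI506816, AC102496.1, Gm46223 and Gm48275 had interactions of -2.06 to -3.29. In Gm4316 and Gm42427 each single knockout lay wholly above WT, while DKO overlapped WT and lay below both single knockouts.

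In 12 genes a difference was called without Cebpa only, 6 with a positive and 6 with a negative interaction. Serpina1e, a mouse α1-antitrypsin gene, ranged from 185419 to 338837 in WT, 80986 to 125672 in Trib1-KO, 3355 to 18991 in Cebpa-KO and 12006 to 146741 in DKO. Trib1-KO lay wholly below WT, although that difference of -1.33 missed the threshold (adjusted p = 0.058), and the DKO libraries were spread over more than 10-fold and partly overlapped Cebpa-KO. The interaction was 3.85 ± 0.71, and its 5 relatives share sequence; the sum of 6 Serpina1 genes averaged 768031 in WT, 544875 in Trib1-KO, 359503 in Cebpa-KO and 495457 in DKO (interaction 0.94 ± 0.19). Rnf186, a ubiquitin ligase gene, ranged from 79.5 to 170 in WT, 110 to 166 in Trib1-KO, 179 to 252 in Cebpa-KO and 42.1 to 137 in DKO (interaction -1.87 ± 0.31). Hamp2, a relative of the iron hormone hepcidin, ranged from 32.9 to 189, 65.6 to 151, 56.4 to 91 and 15.9 to 32.5 in the same order (interaction -1.78 ± 0.46), so that DKO lay below the rest. Cspg5, a proteoglycan gene, was at 2.25 ± 0.45.

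Of the other 8, Rfx4 and Aox3 had a common layout, again noticed after their values were seen. The transcription factor gene Rfx4 ranged from 68.7 to 156 in WT, 97 to 183 in Trib1-KO, 8.2 to 20.1 in Cebpa-KO and 28.6 to 81.7 in DKO (interaction 1.10 ± 0.36). Aox3, an aldehyde oxidase gene, ranged from 17312 to 21022, 13995 to 23953, 7705 to 9836 and 10407 to 18090 (interaction 0.75 ± 0.17). In both, Cebpa-KO lay below all other groups, and DKO lay above Cebpa-KO and overlapped WT only at its upper end. This class depends on single libraries: it held 3 genes without DKO_G2 and 22 without Cebpa-KO_F3.

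**Figure D4:**
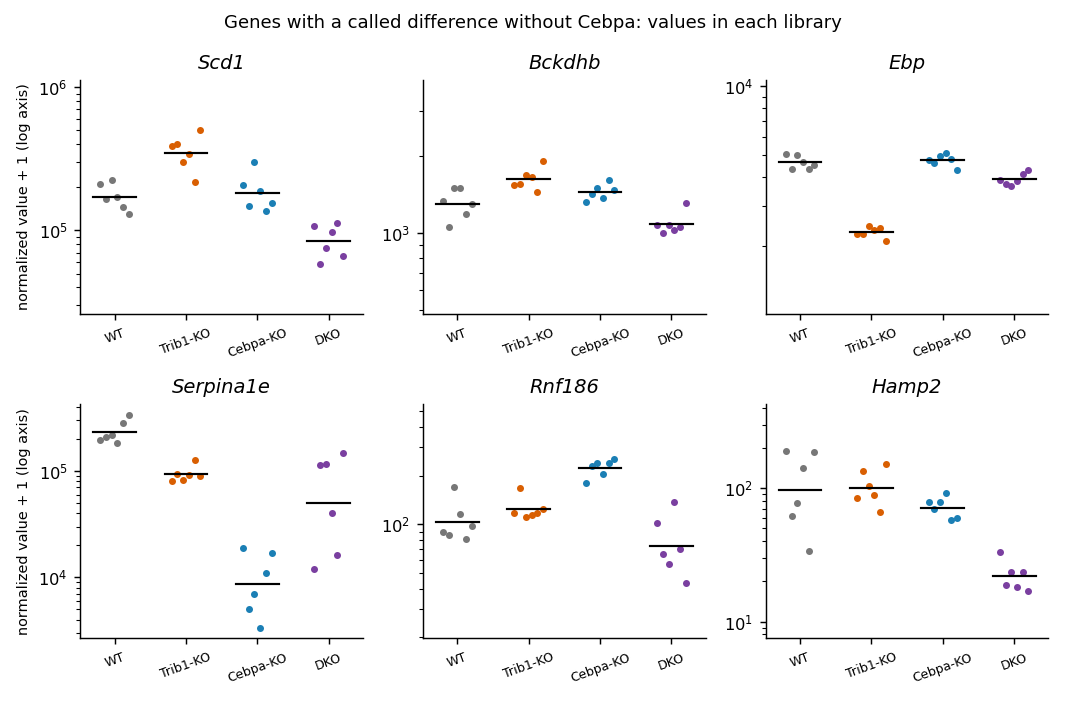
Normalized value plus 1 (log axis) in each library, 6 a group, with a bar at the geometric mean, for 6 genes with a called DKO minus Cebpa-KO difference and a called interaction. Scd1 and Bckdhb rose and then fell, Ebp fell less without Cebpa, and Serpina1e, Rnf186 and Hamp2 differed between DKO and Cebpa-KO while their Trib1-KO minus WT difference did not pass.

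A smaller fall without Cebpa was called in 4 genes. Ebp, the sterol isomerase of cholesterol synthesis, ranged from 4313 to 5037 in WT, 2101 to 2446 in Trib1-KO, 4295 to 5097 in Cebpa-KO and 3643 to 4290 in DKO, so that no floxed-Trib1 library reached its own control group. Its differences were -1.01 and -0.28, and the interaction 0.74 ± 0.08. Sardh, which encodes sarcosine dehydrogenase, had differences of -1.11 and -0.48 and the glutathione transferase gene Gstm6 of -0.95 and -0.52, with interactions of 0.63 ± 0.12 and 0.43 ± 0.13. The latter fell short of the threshold in 13 of 35 alternative fits, 9 of which left out 1 library. The last of the 4 was Gm49011, at 0.68.

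Another 9 genes were called in both backgrounds with the same sign and had no called interaction, Trib1 among them; they too were picked out after their values were seen. Tymp, which encodes thymidine phosphorylase, ranged from 657 to 1070 in WT, 1182 to 1776 in Trib1-KO, 308 to 609 in Cebpa-KO and 752 to 1136 in DKO. The floxed-Trib1 libraries lay above their controls in both backgrounds, by 0.94 and 1.09, and the interaction was 0.16 ± 0.21. Ciapin1, an iron-sulfur cluster assembly gene, ranged from 378 to 504, 538 to 646, 304 to 367 and 421 to 545 in the same order, with differences of 0.49 and 0.47 and an interaction of -0.02 ± 0.12. The glutamine transporter gene Slc1a5 differed by 1.29 and 1.27 (interaction -0.02 ± 0.38), the scavenger receptor gene Scara3 by -1.06 and -0.91 (0.15 ± 0.25), the calcium-binding gene Cib3 by -2.52 and -2.58 (-0.06 ± 0.74) and Hsd11b1, the cortisone reductase gene, by 0.39 and 0.73 (0.34 ± 0.20). Acsm2 and Ighm completed the 9. For Ciapin1 the interval of the interaction, -0.27 to 0.23, held differences of at most about 1.2-fold either way, and for Cib3 it ran from -1.59 to 1.47. Of the 40 genes called between DKO and Cebpa-KO, these 9, the 4 with a smaller fall, the 9 of opposite sign and the 12 found without Cebpa only account for 34, and the remaining 6 had neither a called Trib1-KO difference nor a called interaction.

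The 201 genes with a called interaction and no called difference in either background are represented by the 4 that the naming rule took by size, in each of which the 2 differences had opposite signs. Igf2, the fetal growth factor gene, had differences of 0.84 and -2.03 and an interaction of -2.87 ± 0.66. Slc16a5, a monocarboxylate transporter gene, had 1.07 and -1.15 (-2.22 ± 0.61). Erbb4 and Cidea, at -2.96 ± 0.90 and -3.89 ± 1.30, had widely spread libraries: Erbb4 had 1 library at 662 in Trib1-KO and 1 at 448 in Cebpa-KO, and Cidea 1 at 64.8 in WT. Cidea missed the threshold in 24 of 35 alternative fits, and Erbb4 in 4, with an adjusted p of 0.056 at most.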

How the data were processed

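RNA of 24 mouse livers was sequenced from stranded poly(A) libraries, per the labels' protocols. Per the submitters' processing notes, the tools were Salmon and DESeq2 (no versions or roles given) on GRCm38.p6. The deposited table gives a signal per gene, read from its values as estimated counts divided by a size factor per library; the largest values are rounded in it. Of 54432 gene identifiers, 54050 (99.3%) were matched to GENCODE M21. The 24 columns name a group but no mouse, and within-group correlations found no pair of identical columns. Depth in reads is not given, so no counting interval was computed.

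Log2 of the value plus 1 was fitted with limma 3.58.1 (R 4.3.3), with an intensity trend and the 4 group means, for genes with a mean of at least 1. Genes with a Benjamini-Hochberg adjusted p under 0.05 were called, and the fit was tested on simulated data. Fold changes of low genes are understated by the added 1. Values after ± are standard errors of log2 values unless called SD.

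The named genes are Trib1, Cebpa, Sort1 and Apob, the 15 largest called interactions in each direction where the overall mean reached 10 and each group's mean 1, without predicted-gene, clone or pseudogene names, then up to 4 a class and up to 4 called members of each of 32 lists and 8 marker lists by smallest adjusted p; some of these, and other list members given as values, were left out or added for the text. The members and lists were chosen with earlier results of these data known. Alternatives changed the pseudocount, filter, scaling, trend, weights, threshold or a block for the column number, or left out 1 library.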

Additional observations from a re-analysis of the deposited data

Results flagged for a closer look

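The 2490 genes with a called interaction are themselves differences between 2 backgrounds, tested by the interaction term. Among 184 groups of 6 libraries of 46 genes, 30 had a highest or lowest library set apart from the rest by more than 0.625 of the group's range. For normally distributed values chance gives about 1 in 20. The libraries were compared on the deposited scale and not on the fitted log2 scale, so the 30 cannot be set against that rate.

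In Cebpa-KO, library Cebpa-KO_E1 held 1124 for Mup18 (next 411), 633 for Mup8 (next 186), 1923 for Mup17 (next 408) and 10.6 for Sult2a7 (next 2.81). Cebpa-KO_E3 held 58.9 for Cyp2b9 and 72.7 for Atf3, against 15.9 and 19.4 next to them. Trib1 stood at 646 in Cebpa-KO_F3 against 323 next to it, Ttyh1 at 51.6 in Cebpa-KO_E2 and Erbb4 at 448 in Cebpa-KO_F2.

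In DKO, library DKO_G1 held 28 for Pnpla3, 27.3 for Gpnmb and 44.1 for Cidea. DKO_H3 held 1575 for Enho and 1310 for Bckdhb, DKO_G3 held 315 for Mup17, DKO_H1 held 5.44 for Jazf1, and DKO_H2 was low for Ttyh1 at 3.33.

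In WT, Cyp2a4 stood at 349 and Jazf1 at 22.6 in WT_B3, against 23.9 and 5.42 next to them. Kcnk1 stood at 39.4 in WT_A2, Pnpla3 at 8.43 in WT_B1 and Gprc5b at 38.1 in WT_A3. Library WT_A1 held 64.8 for Cidea and was low for Cspg5 at 16.9.

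In the libraries labelled Trib1-KO, Ugt2b38 stood at 26.3 and Serpina1e at 125672 in Trib1-KO_D2. Trib1-KO_C2 held 3602 for Cyp2c29, 166 for Rnf186 and 50.9 for Igf2, and Trib1-KO_D3 held 662 for Erbb4.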

How the results depend on the processing

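Over 35 alternative fits of 153 named genes, 5214 of 5353 interaction values kept their direction and their side of the threshold, 139 kept their direction but crossed the threshold, and none turned; 130 genes held in every fit. Without a log, where differences add, the sign turned for Dsg1c (-297), Cyp4a10 (-732) and Meg3 (-540). At an adjusted p under 0.01 there were 1402 called genes, 712 positive and 690 negative, 792 of at least 2-fold, with 1316 lost without Cebpa, 0 smaller, 5 of opposite sign, 4 called without Cebpa only, 77 called in neither and 1321 Trib1-KO genes with an opposing interaction. With totals scaled without Mup genes, 626 were positive and 2873 negative, with 2 smaller. With no filter there were 1 smaller and 5 called without Cebpa only, and with no trend 1 smaller. Leaving out 1 library gave 2258 (without Trib1-KO_C1) to 2596 (without WT_B3) called genes, 1 to 5 smaller and 3 to 22 called without Cebpa only; these small classes change with single libraries. With the column number as a block 2623 genes were called. The list medians that turned sign with totals scaled without Mup genes were those of receptors and SREBP regulators (0.18 to -0.06), fatty acid oxidation (0.15 to -0.09), hepatocyte transcription factors (0.14 to -0.09), NRF2 genes (0.01 to -0.20), oxidative phosphorylation (0.12 to -0.11) and the growth hormone axis. Of the called genes, 176 had a group mean under 1, where the added 1 sets much of the value.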
